A study of Mus musculus with 5 samples.

Results

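The CpG methylation of 5 imprinted mouse genes, Plagl1, Grb10, Impact, Snrpn and Slc38a4, was followed through CpG islands and island shores in 5 libraries of reduced representation bisulfite sequencing. This assay cuts DNA with the restriction enzyme MspI, keeps the CpG-rich fragments and reads which of their cytosines are methylated. Regions were taken when they lay inside one of these genes or within 2 kb of it by RefSeq coordinates (GRCm38.p6, the assembly called mm10). This gave 8 of the 33121 islands and shores listed in any library: 1 at Plagl1, 4 at Grb10, 1 at Impact, 2 at Slc38a4 and 0 at Snrpn. Of these 8, 7 were listed in all 5 libraries, as were 30910 of the islands and shores of the whole series.

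The libraries came from C57BL6 mice. They were primordial germ cell-like cells induced from a parthenogenetic embryonic stem cell line (pESC-PGCLC), the same kind of cell induced from a female embryonic stem cell line (ESC-PGCLC), primordial germ cells (PGC) taken at E12.5 from fetal gonads with SSEA1 beads, the parthenogenetic stem cells themselves (pESC) and the female stem cells (female ESC). A parthenogenetic line derives from an egg that developed without a sperm genome, so that both of its chromosome sets are maternal. Both stem cell lines were grown on feeder cells in medium with serum and LIF. For induction, cells spent 46 h as epiblast-like cells and a further 4 days with BMP4, SCF, EGF and LIF, and those positive for CD61 and SSEA1 were collected by flow cytometry. Every group was a single library and each kind of stem cell a single line, so no difference below has a replicate error or a test. The files give levels without read counts, so the depth behind each level is unknown. Methylation data hold no RNA markers of cell type, and the labels do not state the sex of the PGC.

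Genomic imprinting marks one parental copy of a gene with DNA methylation laid down in the egg or the sperm, and the marked and unmarked copies are then expressed differently. At all 5 genes the mark is known to be placed in the egg, at a germline control region. Primordial germ cells remove such marks from both copies while they colonise the gonad, before the marks of their own sex are set. Plagl1 encodes a zinc finger transcription factor that restrains the cell cycle. Grb10 encodes an adaptor protein that dampens insulin and growth factor receptor signalling, and Impact encodes a Gcn1-binding protein that restrains the amino acid-sensing kinase Gcn2. Snrpn encodes a spliceosomal Sm protein within the Prader-Willi domain, and Slc38a4 encodes a neutral amino acid transporter of liver and placenta.

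The starts of these genes are shown first because they mark what lay inside the measured regions. MspI cuts at CCGG, the motif in capitals in the following sequences, and only CpGs near a cut can be read. The RefSeq table (GRCm38.p6) gave 10 promoters of 300 bases, each running 250 bases before to 50 after a start, for 4 of the 5 genes; Impact had no entry. The Plagl1 promoter (chr10:13090582-13090881, plus strand) lay within the only Plagl1 island. The upstream Grb10 promoter (chr11:12037371-12037670, minus strand) had its start in the upstream Grb10 island, and the inner Grb10 promoter (chr11:12027922-12028221, minus strand) in the shore beside the inner island. The Slc38a4 promoter (chr15:97055907-97056206, minus strand) started in a measured shore. The Snrpn promoter shown (chr7:60005150-60005449, minus strand) is the one of its 4 listed that lay in the window of the germline control region, and no measured island or shore covered it.
Plagl1 promoter: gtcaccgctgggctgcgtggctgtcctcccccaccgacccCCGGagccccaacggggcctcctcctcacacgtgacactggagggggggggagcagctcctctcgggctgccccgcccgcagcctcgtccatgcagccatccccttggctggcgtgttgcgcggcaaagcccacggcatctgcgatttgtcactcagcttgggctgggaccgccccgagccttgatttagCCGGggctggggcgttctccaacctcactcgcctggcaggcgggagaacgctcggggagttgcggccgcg
Grb10 upstream promoter: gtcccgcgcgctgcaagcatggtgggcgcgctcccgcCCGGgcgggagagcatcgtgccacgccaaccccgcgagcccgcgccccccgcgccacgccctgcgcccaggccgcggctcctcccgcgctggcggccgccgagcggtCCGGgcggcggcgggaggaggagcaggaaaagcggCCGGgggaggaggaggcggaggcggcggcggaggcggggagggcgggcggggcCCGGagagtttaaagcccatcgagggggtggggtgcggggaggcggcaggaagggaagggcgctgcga
Grb10 inner promoter: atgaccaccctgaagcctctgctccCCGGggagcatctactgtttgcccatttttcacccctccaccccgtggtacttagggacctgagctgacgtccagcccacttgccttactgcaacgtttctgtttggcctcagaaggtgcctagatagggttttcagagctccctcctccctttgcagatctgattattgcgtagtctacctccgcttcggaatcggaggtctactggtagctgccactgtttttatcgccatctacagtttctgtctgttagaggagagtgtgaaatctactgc
Slc38a4 promoter: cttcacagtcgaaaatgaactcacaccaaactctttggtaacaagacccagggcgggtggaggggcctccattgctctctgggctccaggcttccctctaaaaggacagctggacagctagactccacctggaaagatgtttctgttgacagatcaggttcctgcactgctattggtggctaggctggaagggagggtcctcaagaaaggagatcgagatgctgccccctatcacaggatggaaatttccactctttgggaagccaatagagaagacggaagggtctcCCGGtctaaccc
Snrpn promoter: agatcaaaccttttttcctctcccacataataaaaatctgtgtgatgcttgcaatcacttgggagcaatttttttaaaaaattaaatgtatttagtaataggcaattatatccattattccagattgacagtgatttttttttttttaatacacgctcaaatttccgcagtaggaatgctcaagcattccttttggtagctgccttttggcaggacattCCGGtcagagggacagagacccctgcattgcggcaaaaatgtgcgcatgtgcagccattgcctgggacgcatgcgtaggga

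These starts differed in how many CpGs they offered to the assay. The upstream Grb10 promoter held 45 CpGs and 4 CCGG motifs, and the Plagl1 promoter held 26 CpGs and 2 CCGG motifs. The inner Grb10 promoter held 9 CpGs, the Snrpn promoter 7 and the Slc38a4 promoter 5, with 1 CCGG motif each. Over all 32851 promoters of the table the median was 7 CpGs, 52.8% held at least 1 CCGG (a motif that reads the same on both strands) and 13.3% held at least 4. The letters TGCCGC, which in methylated form are bound by ZFP57, a zinc finger protein that preserves imprints after fertilisation, were searched on both strands. They occurred 1 time each in the Plagl1, upstream Grb10 and Snrpn promoters, overlapping no CCGG, and 0 times in the Slc38a4 and inner Grb10 promoters; 11.6% of all promoters held them on either strand.

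The Plagl1 island (chr10:13090532-13091299, positions as the files give them) spans the annotated start of the gene, with 60.9% of its length inside it. Its CpG level was 22.7% in pESC-PGCLC, 2.47% in ESC-PGCLC, 24.8% in PGC, 28.7% in pESC and 1.35% in female ESC. The levels thus lay in 2 ranges, with both parthenogenetic libraries and PGC above 20% and both libraries of the female line below 3%. The parthenogenetic line was higher by 27.3 points as stem cells, the difference ranked 14 from the top of 14214 islands, and by 20.3 points as germ cell-like cells, ranked 15. PGC differed from female ESC by 23.5 points and from pESC by -3.85 points.

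The Impact island (chr18:12973116-12974420) lies wholly inside the gene, 18.4 kb above its lower end. It had 47.1% in pESC-PGCLC, 21.0% in ESC-PGCLC, 39.8% in PGC, 49.4% in pESC and 18.96% in female ESC. The order of the libraries had the same 2 ranges as at Plagl1, but the lower range began near 19% instead of near 1%. The parthenogenetic line was higher by 30.4 points as stem cells (rank 11 of 14214) and by 26.1 points as germ cell-like cells (rank 11). The difference from PGC was 7.28 points in pESC-PGCLC and -18.8 points in ESC-PGCLC, and that of PGC from pESC was -9.57 points.

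Grb10 is the gene that offered both its control region and other regions. The inner island (chr11:12025554-12026580), its germline control region, lies inside the gene, its centre 11.4 kb downstream of the most upstream start. It had 22.6% in pESC-PGCLC, 1.87% in ESC-PGCLC, 19.9% in PGC, 20.5% in pESC and 1.74% in female ESC. The upstream island (chr11:12036489-12038108), which holds the most upstream start, had 1.93% in pESC-PGCLC, 2.03% in ESC-PGCLC, 1.70% in PGC, 1.59% in pESC and 1.84% in female ESC. Its 5 levels spanned less than 1 point, against about 21 points at the inner island. The difference between pESC and female ESC was 18.7 points at the inner island and -0.25 points at the upstream island, and that between pESC-PGCLC and ESC-PGCLC was 20.7 and -0.10 points.

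The 2 Grb10 shores differed from each other. The shore that adjoins the inner island (chr11:12026580-12028581) and holds the inner start had 23.4% in pESC-PGCLC, 15.2% in ESC-PGCLC, 23.3% in PGC, 27.6% in pESC and 16.7% in female ESC. There the parthenogenetic line was higher again, but by 8.22 points as germ cell-like cells and by 10.9 points as stem cells, smaller gaps than at the island it touches. The shore beyond the upstream island (chr11:12038108-12040109), outside the gene, had 26.6% in pESC-PGCLC, 26.8% in ESC-PGCLC, 23.1% in PGC, 36.5% in pESC and 40.1% in female ESC. This shore separated the libraries by cell state, with the germ cells and germ cell-like cells lower than both stem cell lines. The difference on induction was -9.99 points in the parthenogenetic line and -13.3 points in the female line, and pESC-PGCLC differed from ESC-PGCLC by -0.25 points. Over all shores the mean was 12.1% in pESC-PGCLC, 12.46% in ESC-PGCLC, 11.3% in PGC, 12.9% in pESC and 14.3% in female ESC, an order in which the stem cells were also above the germ cells.

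**Figure D1:**
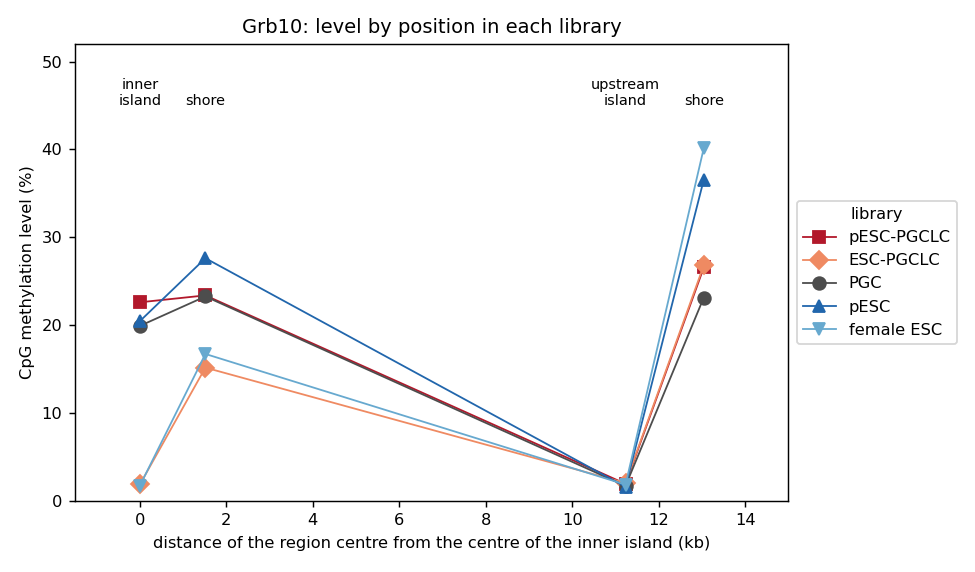
CpG methylation level (%) of the 4 Grb10 regions against the distance of each region's centre from the centre of the inner island (kb), with 1 line for each library. At the inner island the 3 libraries pESC-PGCLC, PGC and pESC lie between 19.9% and 22.6% and both libraries of the female line below 2%; at the upstream island all 5 lie at 1.59% to 2.03%; at the far shore both stem cell lines are highest.

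Slc38a4 had no island in the files but 2 shores, on either side of an interval that no listed island covered. The shore with the start of the gene (chr15:97054857-97056858) had 4.11% in pESC-PGCLC, 7.33% in ESC-PGCLC, 6.74% in PGC, 3.74% in pESC and 8.62% in female ESC. Here the direction was the opposite of that at the other control regions, with the parthenogenetic line lower, at -3.22 points between the germ cell-like cells and -4.87 points between the stem cells. These differences ranked 2064 and 2589 from the lowest of 16696 shores. The 5 further islands and shores within 250 kb of the gene had medians of -3.75 and -5.22 points, so the direction was not particular to this shore. The shore within the gene (chr15:97052447-97054447) was listed in 3 libraries, with 27.1% in pESC-PGCLC, 16.7% in ESC-PGCLC and 10.9% in PGC, and was not listed for pESC or female ESC. It was higher in pESC-PGCLC than in ESC-PGCLC by 10.4 points. The 2 shores of the gene therefore differed in sign between the germ cell-like libraries. The depth behind the levels of the shore within the gene is unknown, so little weight can be put on this. Both lay for the most part in the window of the germline control region and are called control regions on that ground alone. The shore with the start had its lowest level in pESC, so its levels do not bear the name out.

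Snrpn had no measured island or shore. The closest listed ones on its chromosome were an island at Ube3a, 753 kb below the gene, with 1.13% to 1.47% over the 5 libraries, and an island at Ndn, a neighbouring imprinted gene, 1898 kb above it. The Ndn island had 4.20% in pESC-PGCLC, 1.91% in ESC-PGCLC, 3.98% in PGC, 2.43% in pESC and 2.06% in female ESC.

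**Figure D2:**
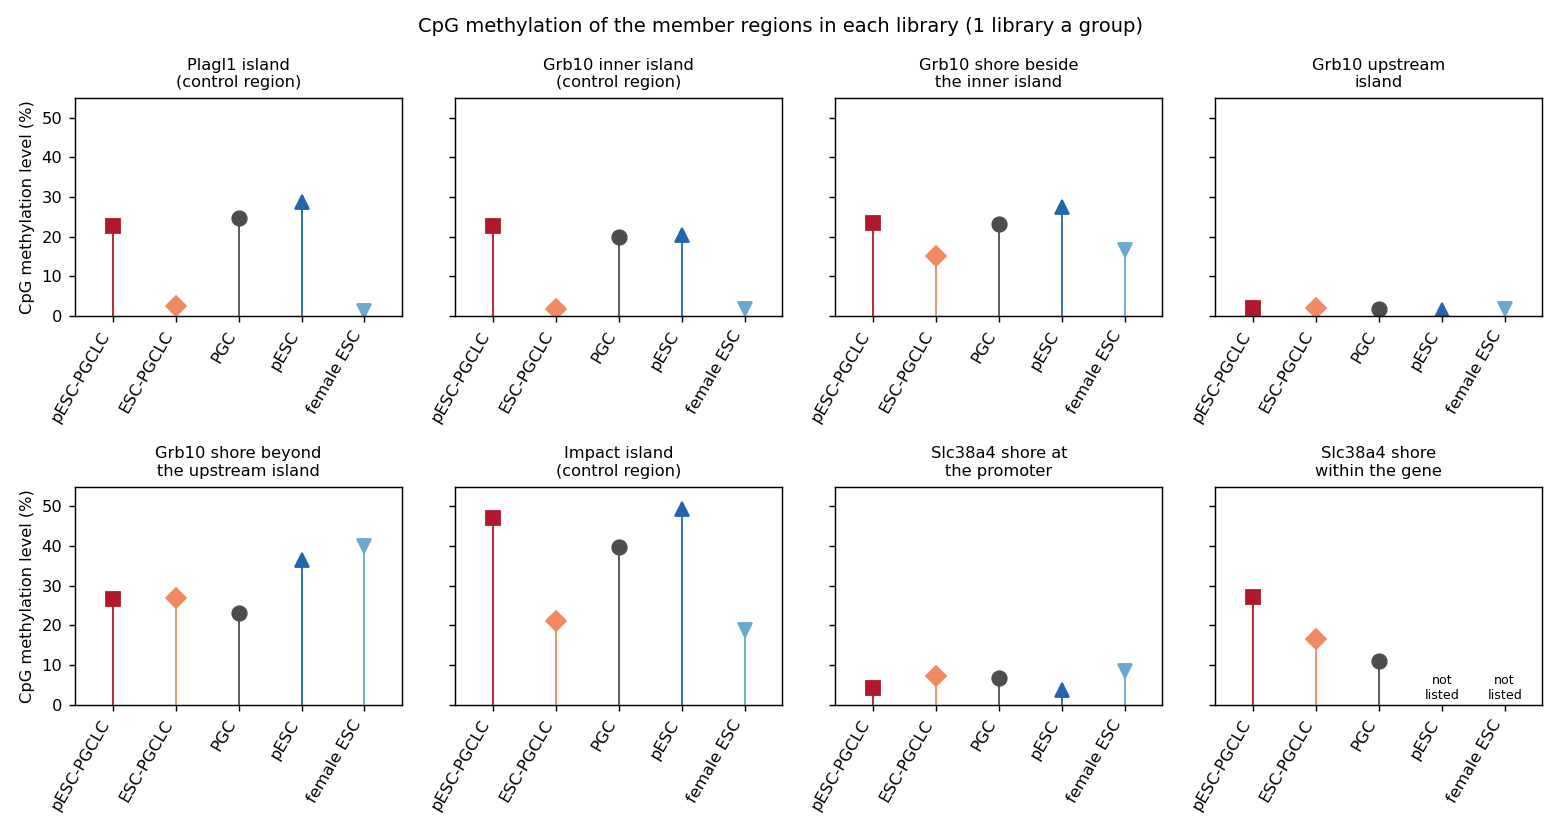
CpG methylation level (%) of the 8 member regions, 1 panel each, with 1 point for each library (1 library a group) and a line down to 0. The islands of Plagl1, Grb10 (inner) and Impact are high in pESC-PGCLC, PGC and pESC and low in ESC-PGCLC and female ESC, while the Slc38a4 shore at the promoter lies between 3.74% and 8.62% and the other Slc38a4 shore is not listed for either stem cell line.

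Counted over the 7 regions listed throughout, 2 were at least 25 percentage points higher in pESC than in female ESC, the Plagl1 and Impact islands, and 0 were lower by as much; over all 30910 islands and shores the shares were 0.149% higher and 0.139% lower. At 10 points, 4 of 7 were higher, the inner Grb10 island and its shore in addition, where 0.683% of all regions were. The median level of the 7 regions was 27.6% in pESC and 8.62% in female ESC. Their median difference was 10.9 points, and that of all regions was -0.16 points.

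Between the germ cell-like libraries, 1 of 7 regions, the Impact island, was at least 25 points higher in pESC-PGCLC than in ESC-PGCLC (0.1% of all regions) and 0 were lower (0.0356%). At 10 points, 3 of 7 were higher (0.453% of all regions), those of Plagl1, Impact and the inner Grb10 island. This comparison shares no library with that of the stem cells, but it sets the same lines against each other and does not replicate it. The 4 control regions listed in all 5 libraries had, as a set, a median level of 22.7% in pESC-PGCLC and 4.90% in ESC-PGCLC, with a median difference of 20.5 points. The median difference of the other 3 regions, all of Grb10, was -0.10 points, and their differences ran from -0.25 to 8.22 points. The highest was that of the shore beside the inner island. This shore lies partly in the window of the germline control region, but by too little to be counted as a control region.

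Set against fetal germ cells, the germ cell-like libraries of the 2 lines stood apart. Of the 7 regions listed in all 5 libraries, 0 were 25 points from PGC in pESC-PGCLC, higher (0.0453% of all regions) or lower (0.0226%), and 0 were 10 points higher (0.945% of all regions) or lower (0.385%). The Slc38a4 shore within the gene, which is not among these 7, differed from PGC by 16.1 points in pESC-PGCLC and by 5.73 points in ESC-PGCLC. The differences of the other 4 control regions in pESC-PGCLC from PGC ran from -2.63 points at the Slc38a4 shore to 7.28 points at Impact. In ESC-PGCLC also 0 of 7 regions passed 25 points, higher (0.0518%) or lower (0.0938%), but 3 of 7 were at least 10 points lower than in PGC, where 0.485% of all regions were. These were the islands of Plagl1 (-22.4 points), Impact (-18.8 points) and inner Grb10 (-18.04 points). The 2 comparisons share the PGC library.

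At the 4 control regions listed in all 5 libraries, levels after induction lay within 6 points of those of the stem cells. The differences of pESC-PGCLC from pESC ran from -5.96 points (Plagl1) to 2.14 points (inner Grb10 island), and those of ESC-PGCLC from female ESC ran from -1.29 points (Slc38a4 shore) to 2.03 points (Impact). In female ESC the Plagl1 and inner Grb10 islands stood at 1.35% and 1.74% and the Slc38a4 shore at 8.62%. A sizeable loss on induction was therefore not possible there. None of the 7 regions differed by 25 points in either line, where 0.0388% of all regions were higher and 0.0582% lower in pESC-PGCLC than in pESC, and 0.0744% higher and 0.214% lower in ESC-PGCLC than in female ESC. At 10 points the far Grb10 shore was lower in ESC-PGCLC, as were 4% of all regions.

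At the islands of Plagl1, Impact and inner Grb10, PGC were closer in level to pESC than to female ESC. Against pESC, 0 of 7 regions were 25 points higher (0.0388% of all regions) or lower (0.0776%) in PGC, and 1 was lower by 10 points, the far Grb10 shore, as were 3.54% of all regions. Against female ESC, also 0 of 7 were 25 points higher (0.116%) or lower (0.56%) in PGC. At 10 points, 3 of 7 were higher in PGC, those same islands (0.618% of all regions), and the far Grb10 shore was lower (9.2%).

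**Figure D3:**
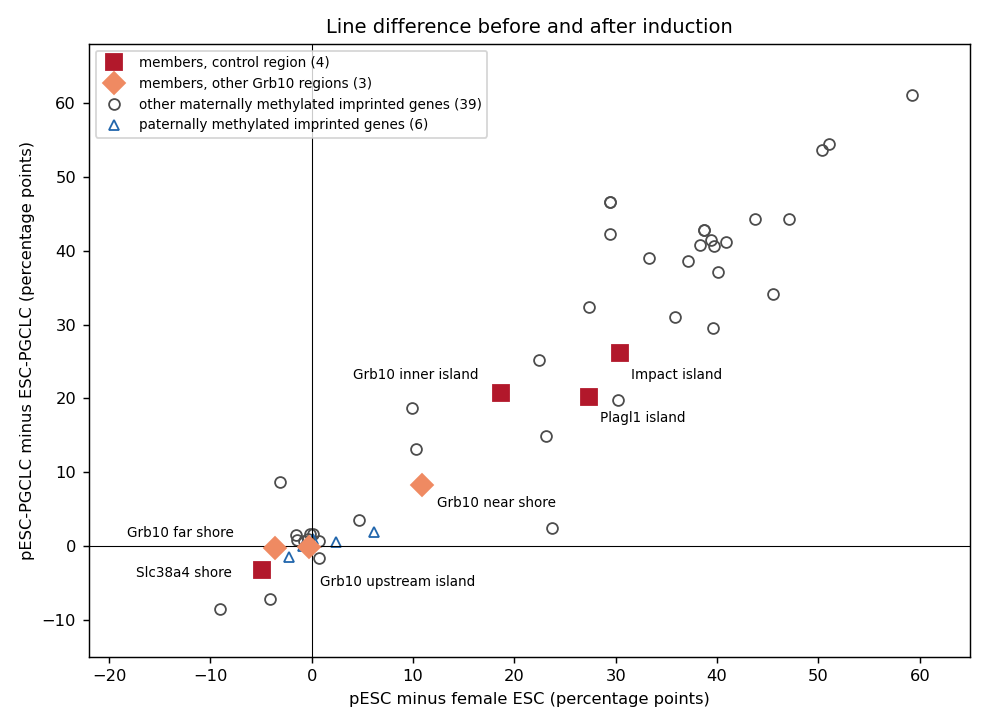
Difference between pESC and female ESC (x axis, percentage points) against that between pESC-PGCLC and ESC-PGCLC (y axis, percentage points) for the members, split into 4 control regions and 3 other Grb10 regions, with open circles for 39 regions of other maternally methylated imprinted genes and open triangles for 6 of paternally methylated ones. The islands of Plagl1, Grb10 (inner) and Impact have both differences between 18.7 and 30.4 points, and the Slc38a4 shore has both below 0. The 2 comparisons share no library but set the same 2 lines against each other.

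The regions around the 5 genes were compared in the same way. Within 250 kb of the genes, 25 further islands and shores were listed in all 5 libraries: 10 around Plagl1, 4 around Grb10, 6 around Impact, 5 around Slc38a4 and 0 around Snrpn. The closest to a control region were centred at -29.8 kb (Plagl1), -32.1 kb (Impact), 190 kb (Slc38a4) and -216 kb (Grb10). How far a difference extended at shorter range was therefore not shown by them. None of the 25 differed by 25 points between pESC and female ESC (0.149% of all regions higher, 0.139% lower). The same held between pESC-PGCLC and ESC-PGCLC (0.1% and 0.0356%), so with shares this small a count of 0 carries little information. The differences of the 25 regions ran from -9.60 to 10.4 points between the stem cells, with a median of -0.10. Between the germ cell-like cells they ran from -8.29 to 2.11 points, with a median of -0.13. The highest difference between the stem cells was at a shore of Gm40602, centred at -31.0 kb from the Plagl1 island, with 15.5% in pESC and 5.17% in female ESC.

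**Figure D4:**
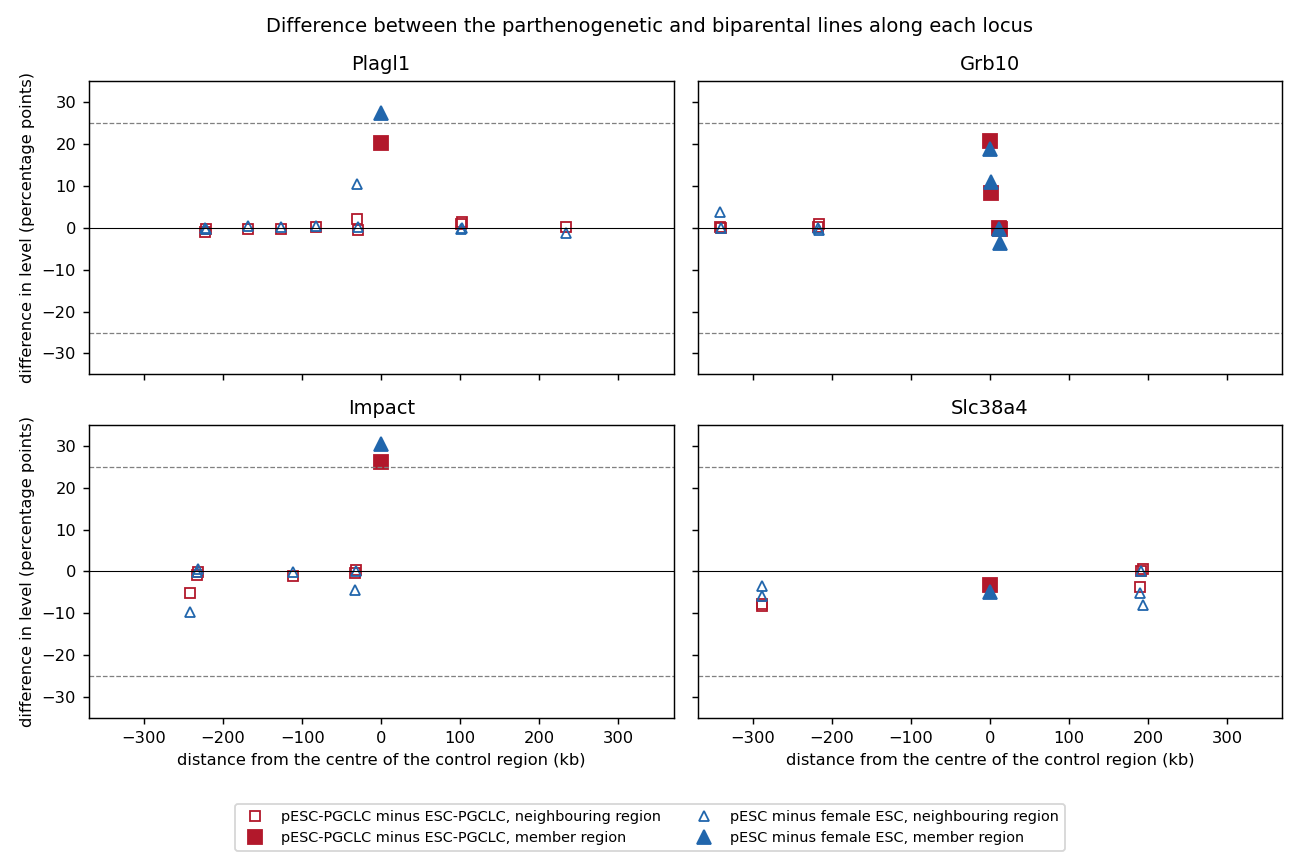
Difference in CpG level (percentage points) against distance from the centre of the control region (kb, negative towards lower coordinates), 1 panel a gene, for pESC-PGCLC minus ESC-PGCLC (squares) and pESC minus female ESC (triangles). Filled symbols are member regions, open symbols the 25 neighbouring islands and shores, and dashed lines stand at 25 points; the open symbols lie between -9.60 and 10.4 points, while the Plagl1, Impact and inner Grb10 islands lie at 18.7 points or more.

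Among all other islands and shores, those with the most similar levels over the 5 libraries were found by the root mean square difference. For Plagl1 the closest was a short island at Zrsr1, an imprinted gene within an intron of Commd1 (1.61 points), with 21.5% in pESC-PGCLC, 1.76% in ESC-PGCLC, 22.6% in PGC, 31.1% in pESC and 0.87% in female ESC. It was followed by a shore of Pax5 (6.67 points) and a shore at no gene (7.87 points). The same Zrsr1 island was the closest to the inner Grb10 island (4.96 points), before shores at Utp25 (5.68 points) and Setd1b (5.95 points). The Impact island was closest to the island within Inpp5f (4.90 points) and to a shore and an island of Nap1l5 (5.14 and 6.02 points), both imprinted genes. The Slc38a4 shore at the promoter was closest to an island of Sbspon and to shores at Nubp2 and S1pr5, within 0.903 points.

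A list of 12 other genes with maternally inherited methylation, chosen with earlier results known, held 39 regions. Of these, 22 were at least 25 points higher in pESC than in female ESC (0.149% of all regions). Between pESC-PGCLC and ESC-PGCLC also 22 of 39 were higher (0.1%). In either comparison 0 were lower by as much (0.139% and 0.0356% of all regions). Some of the 39 overlap and are not separate observations. An island and a shore of Peg3, and likewise of Gnas, had identical levels in all 5 libraries. The median difference of the 39 regions was 29.5 points between the stem cells and 31.1 points between the germ cell-like cells. The members with the widest gaps in that list were Airn, Kcnq1ot1, Mest and Gnas, at 59.2, 51.0, 47.1 and 45.6 points between pESC and female ESC. Of 4 paternally methylated genes, which should lack methylation in a genome of maternal origin, only Rasgrf1 and Zdbf2 had regions. Their 6 regions had a median of 2.70% in pESC and 2.89% in female ESC. Over all 5 libraries the levels ran from 1.34% to 9.71%. These regions were thus low in the female line and in PGC too, and could not show a lack of methylation in pESC. Whether they lie in the control regions of these genes was not checked.

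Cytosines outside CpG give the level that unconverted bases or non-CpG methylation reach at the same regions. At the 8 member regions the CHG level ran from 0.374% to 1.90% and the CHH level from 0.262% to 1.97%, with medians of 0.785% and 0.646% over 38 values each. The CpG levels of the upstream Grb10 island, and those of the Plagl1 and inner Grb10 islands in the female line, were thus within about 2 points of these levels.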

How the data were processed

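CpG methylation came from 5 bisulfite libraries, 1 a group, grouped by title. The submitters' processing notes name Bismark 0.16.3, Bowtie2 and the build mm10. Trimming, coverage filters and the averaging within a region remain not given in the sources used here. Each deposited value is the methylated fraction (0 to 1) of a region in 1 cytosine context, and is printed as percent. With no read counts, counting error and depth are unknown and intervals cannot be given.

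Region coordinates are those of the files, which do not state whether they count from 0 or 1. Genes were placed with RefSeq coordinates, which give gene ends but no exons. A region was a control region when at least 50% of it lay in a window of the germline control region, written from general knowledge and rounded to 1 kb. The Grb10 shore beside the inner island overlapped its window by less than this. It was counted with the other regions, except in the alternative with any overlap of the window. Promoter, exon and intron entries carry gene IDs that were not paired with symbols, and were not used. A difference of 25 percentage points between 2 libraries was counted as called, with no test, over regions listed in all 5 libraries. The planned Fisher's exact test needs read counts and was not run. Members, lists and windows were chosen with earlier results of these data known. Named genes are the 5 members, up to 4 genes of each imprinted list with the widest difference between pESC and female ESC, and the 3 most similar regions of each control region. Gm40602, Ndn, Ube3a and Ttc39c were named after their values were seen. Computation used Python 3.11.15, pandas 2.3.3 and matplotlib 3.10.9. Alternatives covered the threshold, the distance, scaling, removal of the CHH level and region filters.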

Additional observations from a re-analysis of the deposited data

Results flagged for a closer look

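At 3 of the member regions the level moved in opposite directions on induction in the 2 lines. This difference was not tested, since each group had 1 library. How many of all islands and shores did so was not counted, so the 3 cannot be called unusual. Changes near 0 can differ in sign by little. At the Plagl1 island the change was -5.96 points in the parthenogenetic line and 1.12 points in the female line, -7.08 points apart. At the Impact island it was -2.28 and 2.03 points, -4.31 points apart. At the Slc38a4 shore with the promoter it was 0.37 and -1.29 points, 1.66 points apart.

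Non-CpG levels, which the comparisons above do not use, were above 99% of the regions of their class in 2 places. These came from 38 CHG and 38 CHH values. Some values of any class pass such a cut, so the 2 are no trait of these genes. In the inner Grb10 island CHH cytosines reached 1.66% in pESC and 0.657% in female ESC, where the median of all islands was 0.568% and 0.582%. Its CHG level stood at 1.69% in pESC, against 0.413% in female ESC. The CHH level of the Slc38a4 shore within the gene was 1.97% in pESC-PGCLC and 0.623% in ESC-PGCLC, where the median of all shores was 0.692% and 0.718%. That shore was not listed for either stem cell line, and its depth is unknown.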

How the results depend on the processing

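Counts of called regions and the median difference of control regions minus that of other regions were recomputed under 10 other settings, 136 values for 16 results. Of these, 115 were equal, or kept their direction within 1.5 times. Many could not differ. A distance of 5 kb, and removal of regions at exactly 0 or 1 or under 300 bp, left the same 7 regions. Regions of the 2 libraries did so wherever a stem cell library was compared. Counts of 0 that stayed 0 are also among the 115, which is thus no measure of stability. No paired analysis was possible because each group had 1 library.

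The count depended on the threshold. At 10 points it was 4 for pESC against female ESC, 3 for pESC-PGCLC against ESC-PGCLC, 3 for ESC-PGCLC against PGC, 1 for ESC-PGCLC against female ESC, 1 for PGC against pESC and 4 for PGC against female ESC. At 40 points it was 0 for both comparisons of the lines. With class means scaled to be equal, 1 region was called in PGC against female ESC, and 0 as deposited.

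The control regions' excess was 23.3 points for pESC over female ESC and 20.6 points for pESC-PGCLC over ESC-PGCLC, and stayed within 1.5 times under every alternative run. For pESC-PGCLC against PGC it was 0.0528 points, and became 0.107 within the genes alone, -0.0385 with the CHH level removed, -0.931 with class means scaled, 2.45 with regions of the 2 libraries and -1.71 with any overlap of the window. For pESC-PGCLC against pESC (3.27) it was 0.987 within the genes and 1.45 with scaling. For ESC-PGCLC against female ESC (2.18) it was 1.31 within the genes, 0.418 with scaling and 6.71 with any overlap. For PGC against pESC (2.16) it was -0.0755 within the genes and -0.226 with scaling. The cause of these shifts was not tested.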

Other observations

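Among the 25 neighbouring regions, 1 differed by over 25 points in a comparison with PGC. It was 26.0 points higher in ESC-PGCLC than in PGC, where 0.0518% of all regions were at least 25 points higher. PGC minus female ESC was -33.0 points there, where 0.56% of all regions were lower by 25 points. A shore of Ttc39c, centred at -242 kb from the Impact island, had 71.6% in pESC-PGCLC, 76.7% in ESC-PGCLC, 50.7% in PGC, 74.1% in pESC and 83.7% in female ESC. PGC were the lowest library there, whereas at the Impact island they lay between the 2 lines. PGC also had the lowest mean over all shores, 11.3%.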
